A study of Oryza sativa with 6 samples.

Results

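Among the gene models of rice grain that carry no description in the deposited table, 51 were detected in the wild type Zhenong 34 only and are the subject of the following account. They were selected on their measured values. A row was taken where the abundance in TPM, a relative measure of transcripts corrected for gene length, was at most 0.1 in each of the 3 sg34 libraries and at least 2 in each of the 3 Zhenong 34 libraries. Rows whose nearest protein or domain text contained the words transpos, gag-pol, polyprotein, Ulp1 or transposase were left out. The 51 members belong to 31020 rows with an empty description and to 55986 rows in all. Under the 2 TPM limits alone, 73 rows of the whole table were found in Zhenong 34 only, which is 0.130% of all rows. Since the levels of both lines chose the members, their low values in sg34 are a description and were not tested. The empty description was itself part of the rule. Their other annotation, their place among the other genes and the rows next to them did not enter the choice, apart from the excluded words.

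The series compared grains of the mutant sg34 with grains of its wild type Zhenong 34 at the mature period, with 3 RNA-seq libraries of each line made with a SMARTER kit for mRNA. The labels name no mutated gene, so the levels of a targeted gene could not be examined. Whether each replicate is a plant of its own is not stated. A p-value here therefore reflects the spread among these libraries, part of which may be technical. The mutant columns of the table are named sg31, sg32 and sg33 and were read as sg34 replicates 1, 2 and 3, the only mutant of the series. All mutant values rest on that reading.

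Gene models in plant genomes are predicted from sequence and transcripts, and many have no protein of known function near them. Such models include short open reading frames, remnants of mobile elements, and members of large families such as F-box proteins and nucleotide-binding resistance proteins, whose copy number differs between cultivars. The mature rice grain consists largely of starchy endosperm, with an aleurone layer, an embryo and maternal coats.

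Depth per library cannot be read from TPM, and counting intervals are therefore not given. The 8 endosperm marker genes, among them those for granule-bound starch synthase (Wx) and the prolamin-box binding factor RPBF, were detected in every library, at 91.96 TPM or more. Leaf markers were near 0: the 16 rows for chlorophyll a-b binding proteins together took at most 0.0129% of TPM in any library, and the 4 rows for the small chain of ribulose bisphosphate carboxylase at most 0.0246%. Zhenong 34 replicate 1 stood apart from the other libraries in its glutelin share. Glutelin rows took 14.6% to 19.5% of TPM in the sg34 libraries, and 2.73%, 16.4% and 13.6% in Zhenong 34 replicates 1, 2 and 3. The embryo marker OLE16 had 1538.06 to 2259.07 TPM in sg34 and 707.06, 1624.78 and 2664.44 TPM in Zhenong 34 replicates 1, 2 and 3. OLE18, also an embryo marker, had 639.76 to 1017.4 TPM in sg34 and 283.47, 903.29 and 1444.31 TPM in Zhenong 34. Both embryo markers thus differed among all Zhenong 34 libraries. With the TPM limits applied without Zhenong 34 replicate 1, 64 undescribed rows were found, the 51 members and 13 more. Leaving out a library can only add rows under this rule, so the count does not test how far the members depend on it.

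As a group the members were of low to moderate abundance in Zhenong 34. Their mean over its 3 libraries had a median of 7.85 TPM, was highest for LOC_Os10g18090 at 142.1 TPM and lowest for LOC_Os04g11270, whose 3 values lay between 2.02 and 2.18 TPM. At least 10 TPM were reached by 19 members, at least 20 TPM by 10, at least 50 TPM by 5 and at least 100 TPM by 1. Summed over the members, sg34 replicates 1, 2 and 3 held 0.72, 0.13 and 0.39 TPM, and Zhenong 34 replicates 1, 2 and 3 held 1264, 613.7 and 807.3 TPM. The 10 most abundant members took 72.1%, 63.1% and 63.1% of the Zhenong 34 sums. In bulk grain, fewer cells of a type and less RNA per cell cannot be told apart.

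In sg34, 37 of the 51 members were listed at 0 in all 3 libraries. The other 14 were above 0 in at least 1 library: 12 of them in replicate 1, 2 in replicate 2 and 6 in replicate 3. LOC_Os11g38130 and LOC_Os11g41365 were above 0 in all 3. The highest sg34 value of any member was 0.1 TPM, the limit itself. On the scale log2(TPM + 1) after scaling of the libraries, the difference of sg34 minus Zhenong 34 had a median of -2.81 over the members and ran from -6.80 to -1.47, against a median of -0.01 over all 16917 tested rows. For members listed at 0 in sg34 this difference depends on the added 1 and is no measure of a fold, so levels are given below instead.

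**Figure D1:**
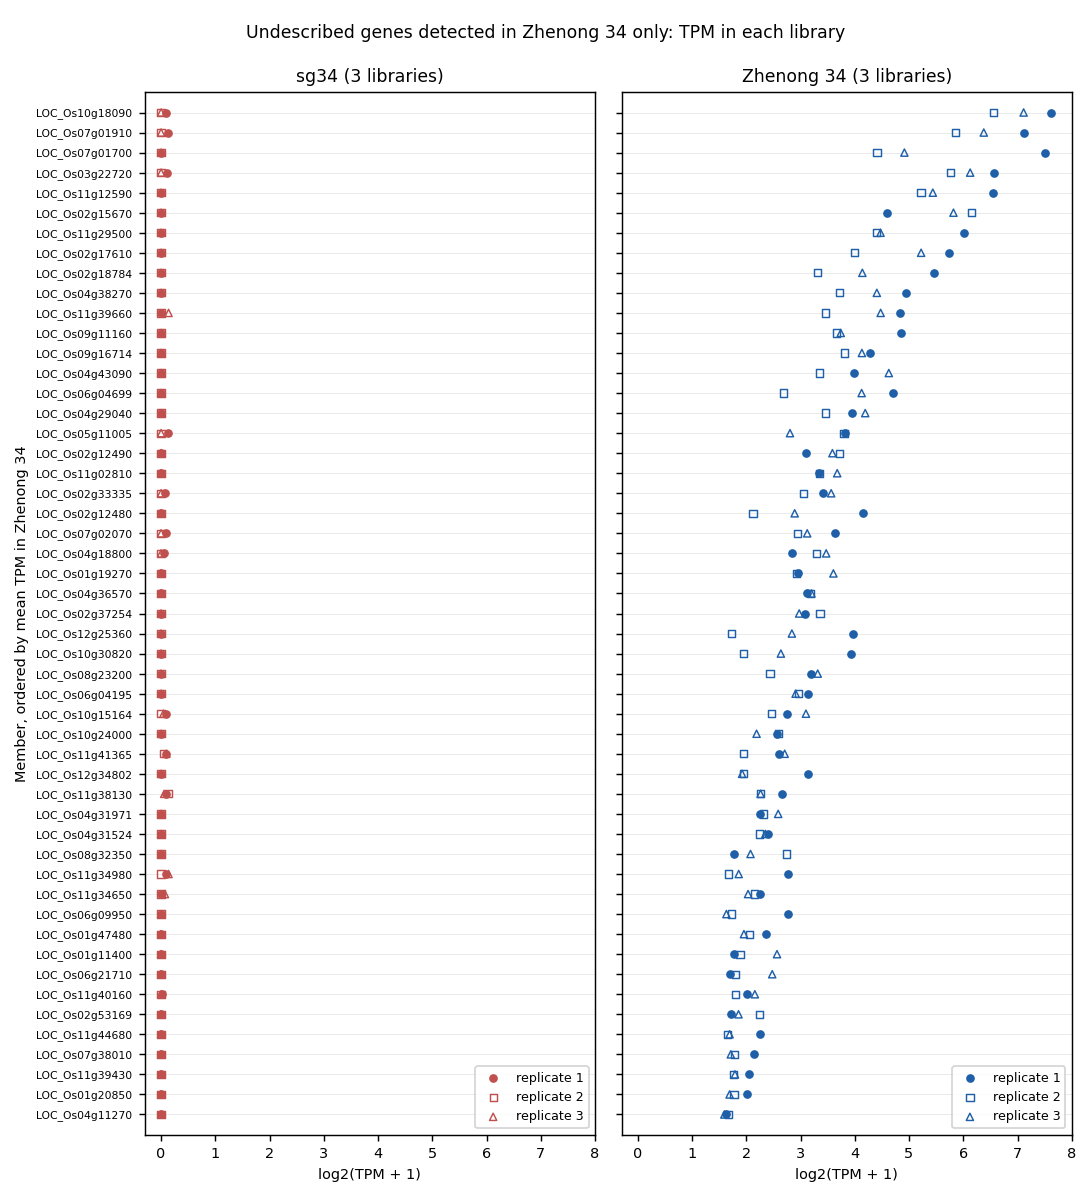
The level of each of the 51 members on the scale log2(TPM + 1), in the 3 sg34 libraries (left) and the 3 Zhenong 34 libraries (right); each symbol is 1 library and members are ordered by their mean in Zhenong 34. All sg34 values lie at or next to 0, while the Zhenong 34 values of single members spread widely, most of all for LOC_Os07g01700.

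Among the 10 most abundant members, the top place belonged to LOC_Os10g18090 on chromosome 10, with 0.06, 0 and 0 TPM in sg34 replicates 1, 2 and 3 and 195.39, 93.45 and 137.36 TPM in Zhenong 34 replicates 1, 2 and 3. Its nearest protein is called a putative antifreeze glycoprotein precursor, a name taken from ice-binding proteins of polar fish, and no domain is given. LOC_Os07g01910 on chromosome 7, with the GO term mitochondrion and no named match, had 0.09, 0 and 0 TPM in sg34 and 138.11, 57.05 and 82.15 TPM in Zhenong 34. LOC_Os03g22720, the sole member on chromosome 3, had 0.08, 0 and 0 TPM in sg34 and 93.53, 53.59 and 68.87 TPM in Zhenong 34. In all 3 genes the trace in sg34 was confined to replicate 1.

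The other 7 of these 10 were listed at 0 in every sg34 library. LOC_Os07g01700 had 180.61, 20.23 and 29.15 TPM in Zhenong 34 replicates 1, 2 and 3, LOC_Os11g12590 had 92.06, 36.24 and 42.36 TPM, and LOC_Os11g29500 had 63.39, 20.13 and 21.23 TPM. Their highest value fell in Zhenong 34 replicate 1, and for LOC_Os07g01700 that library was 8.93 times the lowest one. LOC_Os02g15670 went the other way, with 23.18, 70.29 and 55.45 TPM and its lowest value in replicate 1. LOC_Os02g17610, which has no annotation entry of any kind, had 52.14, 14.96 and 36.34 TPM in Zhenong 34, and LOC_Os02g18784 had 43.03, 8.98 and 16.62 TPM. LOC_Os04g38270 had 29.87, 12.19 and 20.2 TPM in the same libraries. It carries the GO term mitotic spindle assembly checkpoint and the orthology name BUB1, a kinase that in yeast and animals holds back chromosome segregation until the spindle is attached.

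Across the members, Zhenong 34 replicate 1 was the highest of the 3 libraries for 30 members as deposited and for 16 after scaling. The median ratio of replicate 1 to the mean of replicates 2 and 3 was 1.31 for the members and 1.56 for all tested rows as deposited, and 0.784 and 0.974 after scaling. Single members ran from 0.369 for LOC_Os02g15670 to 7.32 for LOC_Os07g01700 as deposited. The coefficient of variation over the 3 Zhenong 34 libraries was taken on deposited TPM, without scaling. Its median was 32.2% for the members and 38.7% for the 12237 tested rows with at least 2 TPM in each of these libraries. The coefficient was smallest for LOC_Os04g36570, at 3.15%, and largest for LOC_Os07g01700, at 117.6%.

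Of the 51 members, 9 have a protein domain in the deposited annotation, and 4 of the 9 lie on the long series of members at the end of chromosome 11. LOC_Os11g38130 carries F-box domains, which link target proteins to a ubiquitin ligase, and a domain of unknown function. It had 0.06, 0.1 and 0.04 TPM in sg34 replicates 1, 2 and 3 and 5.32, 3.78 and 3.8 TPM in Zhenong 34 replicates 1, 2 and 3. LOC_Os11g40160 carries an NB-ARC domain, the nucleotide-binding switch of plant resistance proteins, and its Swiss-Prot match is the putative Arabidopsis disease resistance protein At3g14460. It had 0.01, 0 and 0 TPM in sg34 and 3.03, 2.48 and 3.46 TPM in Zhenong 34. LOC_Os11g44680 carries a calmodulin-binding domain and matches calmodulin-binding protein 60 B, of a family that in Arabidopsis includes regulators of immunity. It was listed at 0 in sg34 and had 3.74, 2.16 and 2.23 TPM in Zhenong 34. As deposited, the highest Zhenong 34 library was 1.41 times the lowest for LOC_Os11g38130, 1.4 times for LOC_Os11g40160 and 1.73 times for LOC_Os11g44680. All 3 genes lay well under the median member.

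LOC_Os11g39660 on chromosome 11 and LOC_Os08g23200 on chromosome 8 share a domain pair, a domain of unknown function (DUF659) and the C-terminal dimerisation region of the hAT family, and the same orthologous group. The dimerisation region is known from transposases of hAT elements and from host genes derived from them. LOC_Os11g39660 had 0, 0 and 0.1 TPM in sg34 and 27.52, 10.04 and 21.26 TPM in Zhenong 34. LOC_Os08g23200 was listed at 0 in sg34 and had 8.11, 4.42 and 8.96 TPM in Zhenong 34. LOC_Os06g21710 carries the gag polypeptide domain of copia-type retroelements, was listed at 0 in sg34 and had 2.25, 2.49 and 4.57 TPM in Zhenong 34. Thus 3 members carry domains of mobile elements although rows with the excluded words had been left out.

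The remaining 3 domain entries name other functions. LOC_Os02g12480 carries the LtrA domain, named after a bacterial protein required for growth at low temperature, and GO terms for membrane. It was listed at 0 in sg34 and had 16.79, 3.36 and 6.42 TPM in Zhenong 34 replicates 1, 2 and 3. LOC_Os07g38010 carries the Cmc1 domain, which in yeast belongs to a protein needed for building cytochrome c oxidase, while its GO terms name protein ubiquitination. It was listed at 0 in sg34 and had 3.4, 2.43 and 2.28 TPM in Zhenong 34. LOC_Os07g02070 carries a domain of unknown function (DUF1263), and its nearest protein is described as XS domain containing protein-like. The XS domain occurs in plant proteins of RNA silencing. It had 0.06, 0 and 0 TPM in sg34 and 11.44, 6.66 and 7.71 TPM in Zhenong 34. Of these 3 genes, LOC_Os02g12480 varied most within Zhenong 34, with its highest value in replicate 1.

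A further 5 members have a Swiss-Prot match but no domain. The match of 3 is a rice kinesin, a motor protein that moves along microtubules. LOC_Os04g36570 matches KIN-12A, was listed at 0 in sg34 and had 7.71, 8.08 and 8.19 TPM in Zhenong 34. LOC_Os11g39430 matches KIN-1, was listed at 0 in sg34 and had 3.16, 2.38 and 2.46 TPM in Zhenong 34. LOC_Os11g41365 matches KIN-14G and had 0.06, 0.03 and 0.07 TPM in sg34 and 5.09, 2.84 and 5.53 TPM in Zhenong 34. In deposited TPM, levels of LOC_Os04g36570 varied less between the Zhenong 34 libraries than those of any other member. After scaling, its ratio of replicate 1 to the mean of replicates 2 and 3 was 0.573. None of the 3 has a kinesin motor domain in the annotation. The KIN-14G entry is given for 58 other rows, among them LOC_Os04g35010, which is described as the transcription factor bHLH95, so this match does not identify a kinesin.

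LOC_Os02g53169 has a Swiss-Prot text cut off after "Nuclear pol", an orthology entry and GO terms for messenger RNA polyadenylation, the addition of poly(A) tails. It was listed at 0 in sg34 and had 2.29, 3.75 and 2.62 TPM in Zhenong 34. LOC_Os10g24000 matches the rice transcription factor APG, a bHLH protein known as a repressor of grain length, and carries the GO term regulation of seed growth. It was listed at 0 in sg34 and had 4.92, 5.01 and 3.56 TPM in Zhenong 34. Its nearest protein is nonetheless called hypothetical. As deposited, both genes were detected at similar low levels in the 3 Zhenong 34 libraries.

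Rows that share a Swiss-Prot match with a member were looked up in the limma test over all rows, in which 1.89% of tested rows were higher and 1.87% lower in sg34. For LOC_Os02g53169 these were 9 rows, of which 5 were tested and 0 passed an adjusted p of 0.05. They included the poly(A) polymerase gene LOC_Os06g36360, with 45.3, 49.91 and 78.03 TPM in sg34 and 46.48, 48.83 and 48.43 TPM in Zhenong 34. For LOC_Os11g44680, 3 of 9 rows were tested and 0 passed. For LOC_Os04g36570, 1 of 2 rows was tested, and for LOC_Os11g39430 the 1 other row, the kinesin-1-like gene PSS1 (LOC_Os08g02380), was tested, and 0 passed in either case. PSS1 had 2.46, 2.36 and 3.52 TPM in sg34 and 8.54, 8.23 and 7.62 TPM in Zhenong 34, and the log2 difference was -0.87 ± 0.24 (SE), at a limma adjusted p of 0.128. For LOC_Os10g24000, 0 of 2 rows were tested. Thus the rows with the same match were in several cases present in both lines.

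Calls were found among the rows matched to At3g14460 and to KIN-14G. Of 17 other rows matched to At3g14460 like LOC_Os11g40160, 3 were tested, 1 was called lower in sg34 and 1 higher. The lower one, the RPP13-like resistance gene LOC_Os01g57310, had 0.03, 0 and 0 TPM in sg34 and 24.21, 19 and 26.93 TPM in Zhenong 34 (limma adjusted p = 9.27e-05). The higher one, LOC_Os11g15670, had 1.32, 1.18 and 1.45 TPM in sg34 and was listed at 0 in Zhenong 34 (limma adjusted p = 0.0047). Of 11 tested rows matched to KIN-14G like LOC_Os11g41365, 4 were called higher and 0 lower in sg34, where 1.89% of all tested rows were higher and 1.87% lower. The count covers few rows and was not tested.

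The nearest protein itself was shared with another row for 5 members, where reads could be split between copies, which was not measured. For LOC_Os02g53169, LOC_Os03g22720, LOC_Os06g04699 and LOC_Os06g21710, the row with the same nearest protein was listed at 0 in all 6 libraries. For LOC_Os04g29040, with 9.95 to 17.28 TPM in Zhenong 34, it was LOC_Os11g46300 on chromosome 11. That row had 0.03, 0.03 and 0.18 TPM in sg34 and 3.56, 3.34 and 4.32 TPM in Zhenong 34, and limma called it lower in sg34 by a log2 difference of -1.93 ± 0.22 (SE), at an adjusted p of 0.00408. Both rows of this pair were therefore low in sg34 and detected in Zhenong 34.

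Of the members without a domain or Swiss-Prot match that are not among the 10 most abundant, LOC_Os04g11270 is described by its nearest protein as cell wall protein-like and had 2.09, 2.18 and 2.02 TPM in Zhenong 34. LOC_Os01g11400, LOC_Os09g16714 and LOC_Os11g02810 share with LOC_Os02g17610 the absence of any annotation entry, with means of 3.34, 15.99 and 10.05 TPM in Zhenong 34. For 23 further members the nearest protein is unnamed or is given as a locus or clone identifier. Their Zhenong 34 means ran from 2.57 to 17.3 TPM.

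The highest 6 of the 23, with Zhenong 34 means from 10.3 to 17.3 TPM, were LOC_Os09g11160, LOC_Os04g43090, LOC_Os06g04699, LOC_Os04g29040, LOC_Os05g11005 and LOC_Os02g12490. The next 8, from 5.93 to 9.26 TPM, were LOC_Os02g33335, LOC_Os04g18800, LOC_Os01g19270, LOC_Os02g37254, LOC_Os12g25360, LOC_Os10g30820, LOC_Os06g04195 and LOC_Os10g15164. The lowest 9, from 2.57 to 4.48 TPM, were LOC_Os12g34802, LOC_Os04g31971, LOC_Os04g31524, LOC_Os08g32350, LOC_Os11g34980, LOC_Os11g34650, LOC_Os06g09950, LOC_Os01g47480 and LOC_Os01g20850. Orthologous groups are given for several of them, but a function for few: LOC_Os01g20850 carries an orthology entry, and LOC_Os08g32350 a GO term for membrane.

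Taken by kind of entry, the members were thinly annotated. A nearest protein was given for 92.2% of them, an orthologous group for 51.0%, a GO term for 25.5%, a domain for 17.6% and a Swiss-Prot match for 13.7%. In the 5652 tested undescribed rows without the excluded words, the same entries were present for 98.7%, 85.7%, 47.6%, 53.4% and 32.3%. The 44 undescribed rows that met the same limits with the lines exchanged, detected in sg34 only, had shares of 97.7%, 61.4%, 20.5%, 22.7% and 11.4%. These shares are descriptions and were not tested. The nearest protein was called hypothetical, unknown, uncharacterized, unnamed or expressed for 33 members, was a locus or clone identifier for 9 and carried a name for 5, while 4 had no entry of any kind.

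**Figure D2:**
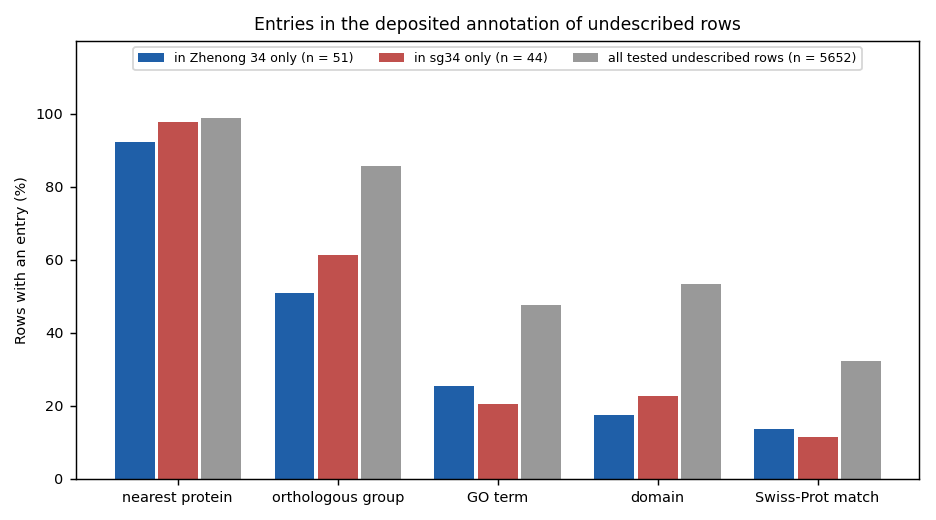
Share of rows (%) with an entry of each kind, for the 51 undescribed rows in Zhenong 34 only, the 44 in sg34 only and the 5652 tested undescribed rows. Both sets found in 1 line only have lower bars than all tested undescribed rows for each kind of entry, with the domain share at 17.6% for the rows in Zhenong 34 only.

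Orthologous groups recurred in few members. COG2801, a group of transposase-like proteins filed under replication, recombination and repair, was given for LOC_Os04g11270, LOC_Os06g21710, LOC_Os07g02070 and LOC_Os11g41365, 4 of 51 members against 1.80% of tested undescribed rows. COG5059, a cytoskeleton group, was shared by the kinesin matches LOC_Os04g36570 and LOC_Os11g39430. COG4886, of unknown function, was shared by LOC_Os11g39430 and the NB-ARC gene LOC_Os11g40160. In the RefSeq gene table for assembly ASM3414082v1, 9 members could be matched by accession or symbol, each on the chromosome that its locus identifier names. Of the 9, 8 are protein coding there, and the match of LOC_Os11g39430 is a long non-coding RNA.

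The TPM limits cut through a continuous range. Just inside the lower limit in Zhenong 34 were LOC_Os04g11270, whose lowest value was 2.02 TPM, LOC_Os06g09950 with 2.1 TPM and LOC_Os11g44680 with 2.16 TPM. Just outside it, listed at 0 in sg34, were LOC_Os01g33615 with a lowest Zhenong 34 value of 1.9 TPM, and LOC_Os01g54750 and LOC_Os08g30095 with 1.83 TPM each. At the upper limit in sg34 stood LOC_Os11g34980, LOC_Os11g38130 and LOC_Os11g39660, each with a highest sg34 value of 0.1 TPM. Just above it were LOC_Os04g19470 and LOC_Os06g24230, with a highest sg34 value of 0.12 TPM each, and LOC_Os05g06530, with 0.18 TPM. Of 3786 undescribed rows with at least 2 TPM in every Zhenong 34 library, excluded words aside, 58 stayed at or under 0.2 TPM in sg34, 68 at or under 0.5 TPM and 83 at or under 1 TPM.

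Members were found on all 12 chromosomes. Chromosome 11 held 11 of them, or 21.6%, against 5.74% of tested undescribed rows. Chromosomes 2 and 4 held 8 each, chromosomes 1, 6, 7 and 10 held 4 each, chromosomes 8, 9 and 12 held 2 each, and chromosomes 3 and 5 held 1 each. Of the 44 undescribed rows in sg34 only, 6 lay on chromosome 11 and 9 on chromosome 10. These chromosomes hold 5.74% and 5.44% of tested undescribed rows. A share on chromosome 11 above that background was therefore not particular to the members. Coordinates are not given, because the genome build of the table is not given in the sources used here. The locus identifiers gave the chromosome and the order of rows.

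**Figure D3:**
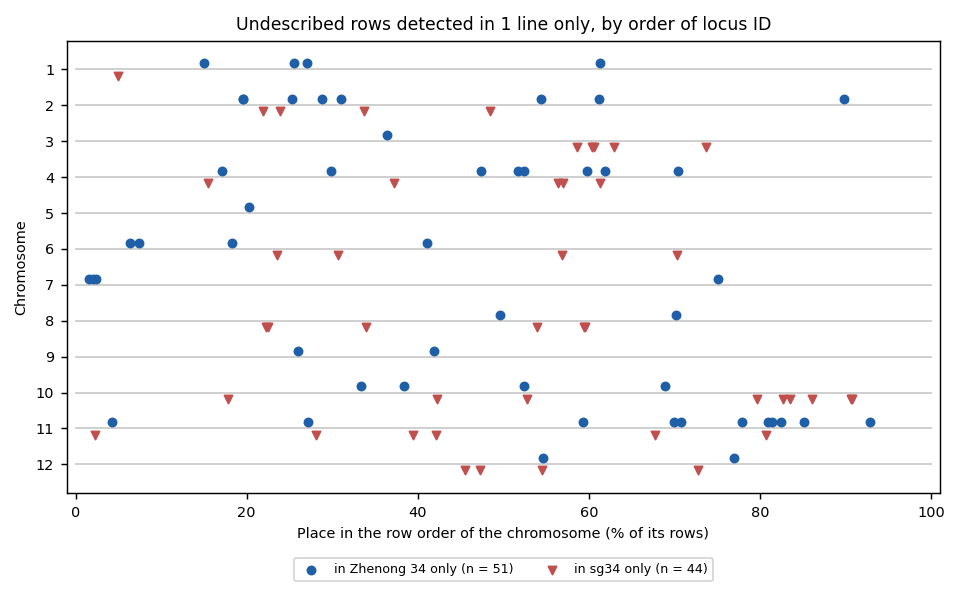
Place of each undescribed row found in 1 line only in the row order of its chromosome (% of the rows of that chromosome), with the 51 rows in Zhenong 34 only as circles and the 44 in sg34 only as triangles. The circles form a group near the end of chromosome 11 and a close trio at the start of chromosome 7.

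Some members lay near each other in the row order. Of 39 pairs of successive members on a chromosome, 8 were within 50 rows, while the median distance was 364 rows. LOC_Os02g12480 and LOC_Os02g12490 are directly adjacent, and LOC_Os07g01700, LOC_Os07g01910 and LOC_Os07g02070 follow each other at 22 and 13 rows near the start of chromosome 7. On chromosome 11, 8 members from LOC_Os11g34650 to LOC_Os11g44680 lay between 70.0% and 92.8% of the row order. Within that stretch LOC_Os11g34650 and LOC_Os11g34980 were 32 rows apart, LOC_Os11g39430 and LOC_Os11g39660 were 22 rows apart, and LOC_Os11g40160 followed after 44 rows. On chromosome 4, LOC_Os04g31524 and LOC_Os04g31971 were 38 rows apart, and on chromosome 6, LOC_Os06g04195 and LOC_Os06g04699 were 49 rows apart.

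The adjacent pair on chromosome 2 did not vary alike within Zhenong 34. LOC_Os02g12480 was highest in replicate 1, with 16.79 TPM against 3.36 and 6.42 TPM in replicates 2 and 3. LOC_Os02g12490 was lowest there, with 7.58 TPM against 12.22 and 11.02 TPM. In deposited TPM, the trio on chromosome 7 was highest in replicate 1 for all 3 genes. The ratio of that library to the mean of the others was 7.32 for LOC_Os07g01700, 1.98 for LOC_Os07g01910 and 1.59 for LOC_Os07g02070. The median of this ratio over all tested rows was 1.56. After scaling, the ratios of the 3 genes were 4.57, 1.24 and 0.974, against a median of 0.974 over all tested rows.

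The rows directly beside the members were mostly near 0 in both lines. For 27 of 51 members, or 52.9%, the row on each side stayed under 1 TPM in all 6 libraries. The share was 52.3% for the undescribed rows in sg34 only, 24.8% for tested undescribed rows and 22.4% for all tested rows. Both adjacent rows were listed at 0 in every library for 15.7% of members and 18.2% of the undescribed rows in sg34 only, against 7.89% of tested undescribed rows and 6.82% of all tested rows. Each of the remaining members had a row beside it that reached 1 TPM in at least 1 library. Among them was LOC_Os03g22720, beside LOC_Os03g22730 with 17.66 to 90.99 TPM in Zhenong 34. Another was LOC_Os06g04195, with 6.51 to 7.81 TPM in Zhenong 34. It stands directly before Wx (LOC_Os06g04200), the gene for the starch synthase that makes amylose. Wx had 9485.75, 9144.54 and 12650.95 TPM in sg34 replicates 1, 2 and 3 and 2789.71, 3292.29 and 2139.52 TPM in Zhenong 34 replicates 1, 2 and 3. Its limma adjusted p was 0.0821. Whether the libraries keep the strand is not given in the sources used here, so reads of overlapping or antisense neighbours could not be told apart.

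To ask whether the difference between the lines reached the genes around the members, the nearest 2 tested rows on each side of every member were examined, leaving out the members themselves. The test, run on rows that reached 1 TPM in 3 or more libraries, was limma on log2(TPM + 1) after scaling, with Benjamini-Hochberg adjustment over all 16917 tested rows. Of 198 such neighbours, 14 were lower in sg34 at an adjusted p under 0.05, or 7.07%, where 1.87% of all tested rows and 1.57% of tested rows that are not members were lower. Another 5 were higher in sg34, or 2.53%, where 1.89% of all tested rows were higher. Without rescaling of TPM the higher neighbours were 1.01%, below the 1.1% of all tested rows, while the lower ones stayed at 7.07% against 1.78%. The other 179 did not pass. The median log2 difference of the neighbours was -0.15, against -0.01 over all tested rows, and 58.1% had a difference below 0, against 50.7% of all tested rows. In deposited TPM, all 3 sg34 libraries lay below all 3 Zhenong 34 libraries for 29.3% of neighbours and for 16.7% of tested rows that are not members.

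Most lower calls were in the closest rows: 11 of the 100 nearest neighbours were called lower and 3 of the 98 second nearest. Chromosome 11 held 7 of the 14 lower neighbours among 42 there, or 16.7%, where 4.09% of its tested rows that are not members were lower. On the other chromosomes 7 of 156 neighbours were lower, or 4.49%, where 1.44% of such rows were. Of 118 neighbours that have a description, 6 were lower and 3 higher, where 1.87% of all tested rows were lower and 1.89% higher. The shares among described tested rows alone were not computed. Leaving out 1 library moved both the count and its background. Without sg34 replicates 1, 2 and 3 the lower neighbours numbered 6, 7 and 7, or 3.03%, 3.54% and 3.54%, against 0.999%, 0.916% and 1.08% of all tested rows. Without Zhenong 34 replicates 1, 2 and 3 they numbered 14, 9 and 8, or 7.07%, 4.55% and 4.04%, against 2.19%, 1.51% and 1.22%. With every row above 0 in at least 1 library in the fit, 5 neighbours were lower, or 2.51%, against 0.856%.

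**Figure D4:**
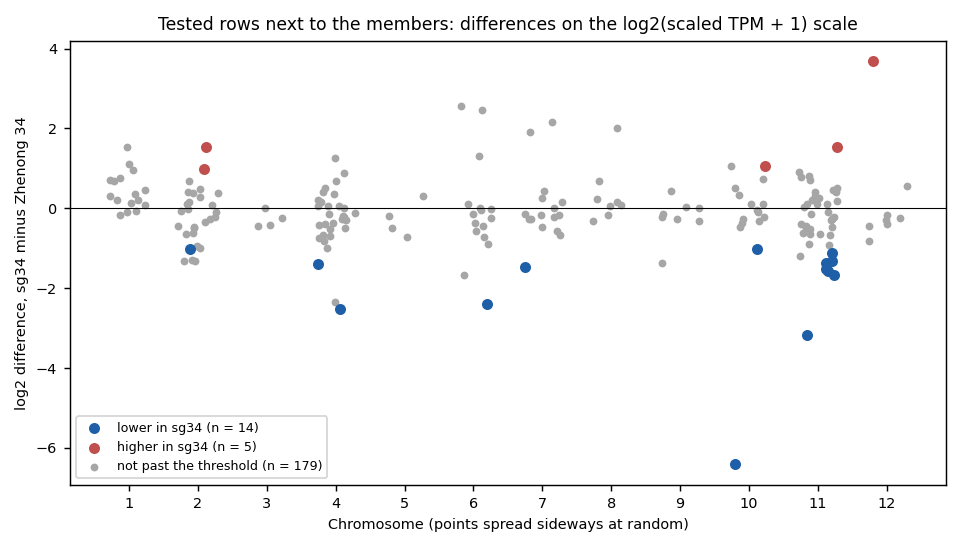
Log2 difference of sg34 minus Zhenong 34, on the scale log2(scaled TPM + 1), for the 198 tested rows nearest to the members, by chromosome; each point is 1 row. The 14 rows called lower in sg34 lie below 0 and include 7 on chromosome 11, and the lowest point is LOC_Os10g15240 on chromosome 10 at -6.41.

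The neighbour with the largest difference was LOC_Os10g15240, described as GABA transaminase 1, which degrades the amino acid GABA, the nearest tested row to the member LOC_Os10g15164 on its side. It had 0.06, 0 and 0.07 TPM in sg34 and 145.57, 87.58 and 93.83 TPM in Zhenong 34, and the log2 difference was -6.41 ± 0.18 (SE), at a limma adjusted p of 1.2e-05. This described gene met the same TPM limits as the members. LOC_Os06g04690, an undescribed row with an F-box domain beside LOC_Os06g04699, had 0.59, 0.7 and 1.04 TPM in sg34 and 19.53, 7.03 and 9.15 TPM in Zhenong 34 (log2 difference -2.39, limma adjusted p = 0.00124). In both genes, which were chosen by their call, the 2 lines did not overlap.

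Of the other neighbours called lower, LOC_Os11g12650 near LOC_Os11g12590 is described as a PHD finger protein, a class that reads histone marks. It averaged 1.15 ± 0.46 TPM in sg34 and 7.92 ± 2.33 TPM in Zhenong 34 (SD, n = 3 each), with limma adjusted p = 0.00583. LOC_Os04g32000, undescribed and near LOC_Os04g31971, averaged 0.16 ± 0.10 TPM in sg34 and 2.66 ± 0.76 TPM in Zhenong 34 (SD, n = 3 each), with limma adjusted p = 0.00813. Both calls held in each of the 6 fits without 1 library, as did those of LOC_Os10g15240 and LOC_Os06g04690. With replicate number as a block in the model, both were lost (limma adjusted p = 0.0531 for LOC_Os11g12650 and 0.0983 for LOC_Os04g32000). Those of LOC_Os10g15240 and LOC_Os06g04690 were kept (limma adjusted p = 0.00383 and 0.0285). Of all 19 called neighbours, lower or higher, 4 were also called with the block. The undescribed row LOC_Os11g34950 near LOC_Os11g34980 averaged 4.96 TPM in sg34 and 20.65 TPM in Zhenong 34 (limma adjusted p = 0.00597, or 0.0555 without sg34 replicate 2 and 0.0506 when TPM were not rescaled). LOC_Os04g38290, undescribed and near LOC_Os04g38270, averaged 2.69 TPM in sg34 and 24.56 TPM in Zhenong 34 (limma adjusted p = 0.0119, or 0.0653 without sg34 replicate 1).

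A further 7 lower calls were lost in most fits without 1 library. They were LOC_Os10g30670 near LOC_Os10g30820, LOC_Os11g41500 and LOC_Os11g41410 near LOC_Os11g41365, the U-box gene LOC_Os11g40400 near LOC_Os11g40160, the isochorismatase-like row LOC_Os02g17640 near LOC_Os02g17610, the purple acid phosphatase 3 gene LOC_Os11g34710 near LOC_Os11g34650, and the nucleolar GTP-binding protein 1 gene LOC_Os07g01920 near LOC_Os07g01910. Their log2 differences ran from -1.58 to -1.02 and their limma adjusted p from 0.0241 to 0.0447. Each was lost in the 3 fits that left out 1 sg34 library, and all but LOC_Os11g41500 also without Zhenong 34 replicate 3. Over the 6 fits their adjusted p reached 0.117 to 0.194. When TPM were not rescaled, LOC_Os11g41500 (0.0506) and LOC_Os07g01920 (0.13) were also lost, and with no filter on low values all of the 7 but LOC_Os11g41500 were. Among them LOC_Os02g17640 had 5.41, 6.32 and 8.07 TPM in sg34 and 23.71, 17.96 and 19.35 TPM in Zhenong 34. In each of the 7 genes the 2 lines did not overlap in deposited TPM. Since their call chose them, this adds no support. All sg34 libraries lay below all Zhenong 34 libraries in 16.7% of tested rows that are not members.

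The 5 neighbours called higher in sg34 were of several kinds. LOC_Os12g25280, an undescribed row near LOC_Os12g25360, had 10.1, 7.6 and 12.67 TPM in sg34 and was listed at 0 in Zhenong 34 (limma adjusted p = 0.000106). A row found in sg34 only thus stands 8 rows from a member found in Zhenong 34 only. The clustered mitochondria protein gene LOC_Os02g15660, next to LOC_Os02g15670, averaged 2.59 ± 0.48 TPM in sg34 and 0.507 ± 0.167 TPM in Zhenong 34 (SD, n = 3 each), with a log2 difference of 1.53 ± 0.17 (SE) and limma adjusted p = 0.00365. With the replicate block the call of LOC_Os02g15660 was lost (limma adjusted p = 0.063). The gene LOC_Os11g34460 near LOC_Os11g34650, described as Adagio-like protein 3, of a family of blue light receptors in the plant clock, averaged 39.03 ± 13.8 TPM in sg34 and 18.69 ± 5.96 TPM in Zhenong 34 (SD, n = 3 each). Its limma adjusted p was 0.00549, or 0.278 when TPM were not rescaled. LOC_Os10g18070 near LOC_Os10g18090 and the pentatricopeptide repeat gene LOC_Os02g37140 near LOC_Os02g37254 had log2 differences of 1.06 and 0.98, with limma adjusted p of 0.0118 and 0.0176. Both calls were lost when TPM were not rescaled, with no filter on low values, without Zhenong 34 replicate 3 and without any 1 of the sg34 libraries, with adjusted p up to 0.27.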

How the data were processed

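Messenger RNA libraries of mature rice grain, 3 of sg34 and 3 of Zhenong 34, were compared in 1 table deposited by the authors. The authors deposited TPM, relative abundances normalized for transcript length and library, which summed to 967528 to 991476 in each library and carry no depth. The submitters' processing notes list Bowtie2, RSEM, StringTie, HISAT2 2.1.0 and DESeq2 1.12.4 without saying what each did. They also list a genome build of the mouse, at odds with rice locus identifiers, so which build was used is unknown here. Per-sample columns left unmapped numbered 0.

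Libraries were scaled by TMM factors without weights, which ran from 0.702 to 1.66. The 16917 rows that reached 1 TPM in 3 or more libraries entered limma 3.58.1 (R 4.3.3) as log2(TPM + 1), with a mean-variance trend. The procedure was tested on simulated data in which only rows of higher abundance were changed. That simulation does not cover calls in low rows. On the measured values, limma called 320 rows higher and 316 lower in sg34. Differences on this scale understate the change of low genes. Fits without 1 library kept the same tested rows.

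The members and lists were chosen with earlier results of these data known. Every member is named; libraries are given singly for the 10 most abundant members and those with a domain (those with a Swiss-Prot match were added), and called neighbours are named, except 1 that is not reported here.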

Additional observations from a re-analysis of the deposited data

How the results depend on the processing

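With all limits but 1 kept, members numbered 85 at 1 TPM or more in Zhenong 34, 26 at 5 TPM or more, 37 with 0 required in sg34, 68 at up to 0.5 TPM in sg34, 40 with the limits on scaled TPM (36 of the 51 and 4 others), and 53 to 64 without 1 library. Undescribed rows in sg34 only numbered 44, or 24 at 5 TPM or more and 46 to 50 without 1 library. Leaving out a library can only add rows to either set. The members' median log2 difference of -2.81 was -5.89 with a pseudocount of 0.1, -1.16 with 5 and -3.06 without rescaling, where the median of all tested rows was -0.43. All tested rows gave 320 higher and 316 lower, or 129 and 140 at 5 TPM in 3 libraries, where fewer rows are tested, 186 and 301 without rescaling, which turned the even split towards lower calls, and 165 to 364 higher and 155 to 370 lower without 1 library. Lower neighbours numbered 14 of 198 (7.07%), or 5 with no filter and 6 to 14 without 1 library. Higher ones numbered 5 (2.53%), or 2 without rescaling (1.01%, against 1.1% of all tested rows) and 3 to 7 without 1 library. With 5 rows a side, 25 of 485 neighbours were lower (5.15%, against 1.87% of all tested rows). In that setting 17 were higher (3.51%, against 1.89%). Same-numbered libraries deviated from their group means with correlations of -0.541, 0.0032 and -0.368. Libraries of different number were not compared, so these values cannot tell whether the numbers mark a shared plant or batch. With the replicate block 131 rows were higher and 123 lower, and 1 neighbour was higher (0.505%, against 0.774%) and 3 lower (1.52%, against 0.727%). Where no value above shows a cause, the cause was not tested. The log2 differences of the called neighbours kept their sign in each of these alternatives. Those of the members did too, but the TPM limits of the rule fixed that in advance. Higher neighbours were above the share of all tested rows as described and below it without rescaling and with the block. Depth is unknown, so a listed 0 sets no limit on the level in sg34.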

Other observations

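Under the same TPM limits, 21 rows with a description were found in Zhenong 34 only. Their mean in Zhenong 34 had a median of 6.17 TPM, and a domain was given for 81.0% of them. The highest were the GABA transaminase gene LOC_Os10g15240, the F-box/kelch gene LOC_Os11g08830 and the Bowman-Birk trypsin inhibitor gene LOC_Os01g03680, of a family of seed protease inhibitors. LOC_Os11g08830 was listed at 0 in sg34 and had 36.49, 23.51 and 26.44 TPM in Zhenong 34 replicates 1, 2 and 3. LOC_Os01g03680 had 0, 0.06 and 0.07 TPM in sg34 and 2.85, 7.06 and 62.73 TPM in Zhenong 34, so its mean rests largely on replicate 3. One undescribed row, LOC_Os12g24790, was left out for a retrotransposon match of the LINE subclass. It had 0, 0.02 and 0 TPM in sg34 and 3.31, 3.35 and 4.84 TPM in Zhenong 34.

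With the lines exchanged, 44 undescribed rows were found in sg34 only, with a median of 6.74 TPM in sg34, and 32 of them were listed at 0 in every Zhenong 34 library. The 3 highest were LOC_Os10g35100, with 62.86, 66.81 and 100.39 TPM in sg34 and a listed 0 in Zhenong 34, LOC_Os10g39470, with 43.08, 44.74 and 80.83 TPM in sg34 and 0.09, 0.08 and 0.04 TPM in Zhenong 34, and LOC_Os08g10760, with 30.51, 38.62 and 70.46 TPM in sg34 and a listed 0 in Zhenong 34. All 3 were highest in sg34 replicate 3. Of the 44 rows, 2 lay within 10 rows of a member, LOC_Os12g25280 at 8 rows and LOC_Os11g39330 at 9 rows.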
